A study of Arabidopsis thaliana with 8 samples.

Results

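Transcript levels of 9 defence-associated genes were followed along the inflorescence stem of Arabidopsis thaliana, comparing cov mutant plants with the Ler-0 wild type. The genes were taken from a fixed list of 9 loci and found through the probe annotation, out of 13355 genes that have a probe set of their own there. They are AT1G65490 and AT1G65500 (small secreted peptides), AT5G03350 and AT5G18470 (lectins), AT5G52760 (metal-binding), AT1G10340 (ankyrin repeats), and AT3G48640, AT1G13470 and AT3G60420. The list was drawn up with the differences between these 4 groups already known. All values of the 9 genes are therefore given as a description, with no test, and they are not independent evidence of any direction.

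Each of 8 Affymetrix ATH1 arrays carried total RNA from 1 stem sample, with 2 arrays in each of 4 groups: wild type tip, wild type base, cov tip and cov base. The wild type was the Ler-0 stock NW20. All plants were at growth stage 6.10, stood on compost in a growth room at 22 °C, 65% humidity and 24 hours of light, and received Intercept, an insecticide, so no group is free of that treatment. The study asked how COV acts in the patterning of vascular tissue. The labels give neither the allele, its background nor whether the 2 samples of a group came from separate plants. The number of arrays limits the precision, and any p-value below measures only the spread between these samples, which may be technical.

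Plants meet pathogens with receptors that recognise microbial patterns and with intracellular receptors. Both lead to the hormone salicylic acid, which turns on a broad set of genes for secreted peptides, carbohydrate-binding lectins and other proteins of known or unknown function. Many of these genes are raised together in mutants with constitutive defence. The legume-type lectin-like gene AT5G03350 is known to be induced by salicylic acid. Ankyrin repeats, as in AT1G10340, are stretches through which proteins bind each other. AT1G65490 and AT1G65500 are adjacent genes for short secreted peptides.

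Values are MAS5 signals, a linear measure of array brightness scaled alike on every array. Array medians lay between 41.4 and 50.1. A probe set with a mean signal under 21.4 over the 8 arrays was treated as dim and left out of tests. The 9 genes had 10 probe sets, of which 9 passed that limit, 1 for each gene. The 10th, a second probe set of AT3G60420, read 1.4 to 5.4 on all arrays and showed none of the differences of the first. The stem parts carried the markers of their labels as far as these could be named. The secondary wall genes GUT2, IRX15 and IRX15-L summed to 2316 and 2902 at the wild type base and to 170.2 and 189.3 at the wild type tip. The tapetum gene AT5G07230 (entered in the marker list as A9) read 769.7 to 1077.2 on the 4 tip arrays and 1 to 9.9 on the 4 base arrays, so anther markers were present in the tip material of both genotypes. The photosynthetic marker RCA summed to 2308 to 3103 over the 8 arrays and passed no test. The shoot apex marker CLV3 was dim. The targeted gene COV1 could not be looked up by name in the annotation used here, so the genotype labels were not checked against it. That annotation pairs 13513 of 22746 probe sets with exactly 1 gene, so a gene below without a probe set of its own may still be measured under an unnamed one. In whole stem parts, fewer cells of a type and less RNA per cell cannot be told apart.

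The small secreted peptide genes were low at the wild type tip and high in both cov parts. AT1G65490 read 51.4 and 62.6 at the wild type tip, 482.2 and 468.9 at the wild type base, 414.1 and 489.5 at the cov tip, and 928 and 495.6 at the cov base. The wild type tip stood apart from the other groups, and the cov tip overlapped the wild type base, at 95% of its mean. AT1G65500 read 23.4 and 22.1 at the wild type tip, 85.5 and 90.2 at the wild type base, 189.4 and 198 at the cov tip, and 354.7 and 240.8 at the cov base. Its 4 groups did not overlap, and both cov parts lay above both wild type parts, so that the cov tip was at 220% of the wild type base.

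The lectin genes behaved differently from each other. AT5G03350 read 70.4 and 71.6 at the wild type tip, 20.7 and 13.3 at the wild type base, 279.8 and 214.1 at the cov tip, and 383.1 and 224.2 at the cov base. It was the only 1 of the 9 genes lower at the base than at the tip in wild type, and its cov tip and cov base overlapped. AT5G18470, a gene for a mannose-binding type lectin, read 10.2 and 10.5 at the wild type tip, 324.5 and 349.2 at the wild type base, 36.5 and 40.1 at the cov tip, and 658.5 and 332.4 at the cov base. Its base arrays overlapped between the genotypes, and the cov tip reached 11.4% of the mean of the wild type base.

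AT5G52760, whose product carries a heavy-metal-associated domain, was close to the lowest signals of the array at the wild type tip, with 0.8 and 0.7. It read 286.4 and 240.9 at the wild type base, 96 and 113.4 at the cov tip, and 556.5 and 193.4 at the cov base. The cov tip lay apart from both the wild type tip and the wild type base, at 39.7% of the latter, and the base arrays of the genotypes overlapped. The ankyrin gene AT1G10340 read 3.8 and 2.1 at the wild type tip, 425.1 and 301.2 at the wild type base, 50.1 and 48.9 at the cov tip, and 400 and 177.1 at the cov base. It was 1 of 2 genes with a lower mean at the cov base than at the wild type base, 288.6 ± 158 against 363.1 ± 87.6 (SD, n = 2), though with overlapping arrays.

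The other 3 genes, to which no class is given here, followed the same order. AT3G48640 read 20.4 and 1 at the wild type tip, 798.2 and 503.7 at the wild type base, 121.2 and 150.2 at the cov tip, and 904.3 and 387.8 at the cov base. AT1G13470 read 6.2 and 0.4 at the wild type tip, 313.9 and 117.5 at the wild type base, 17.9 and 28.7 at the cov tip, and 315.4 and 226.2 at the cov base. For AT3G60420 the signals were 3.1 and 2.3 at the wild type tip, 238.9 and 280.3 at the wild type base, 53.9 and 90.7 at the cov tip, and 331.4 and 219.9 at the cov base. In all 3 the wild type tip was lowest, the cov tip lay above it without overlap, and the base arrays of the genotypes overlapped above both. The cov tip reached 20.8%, 10.8% and 27.9% of the wild type base for AT3G48640, AT1G13470 and AT3G60420.

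**Figure D1:**
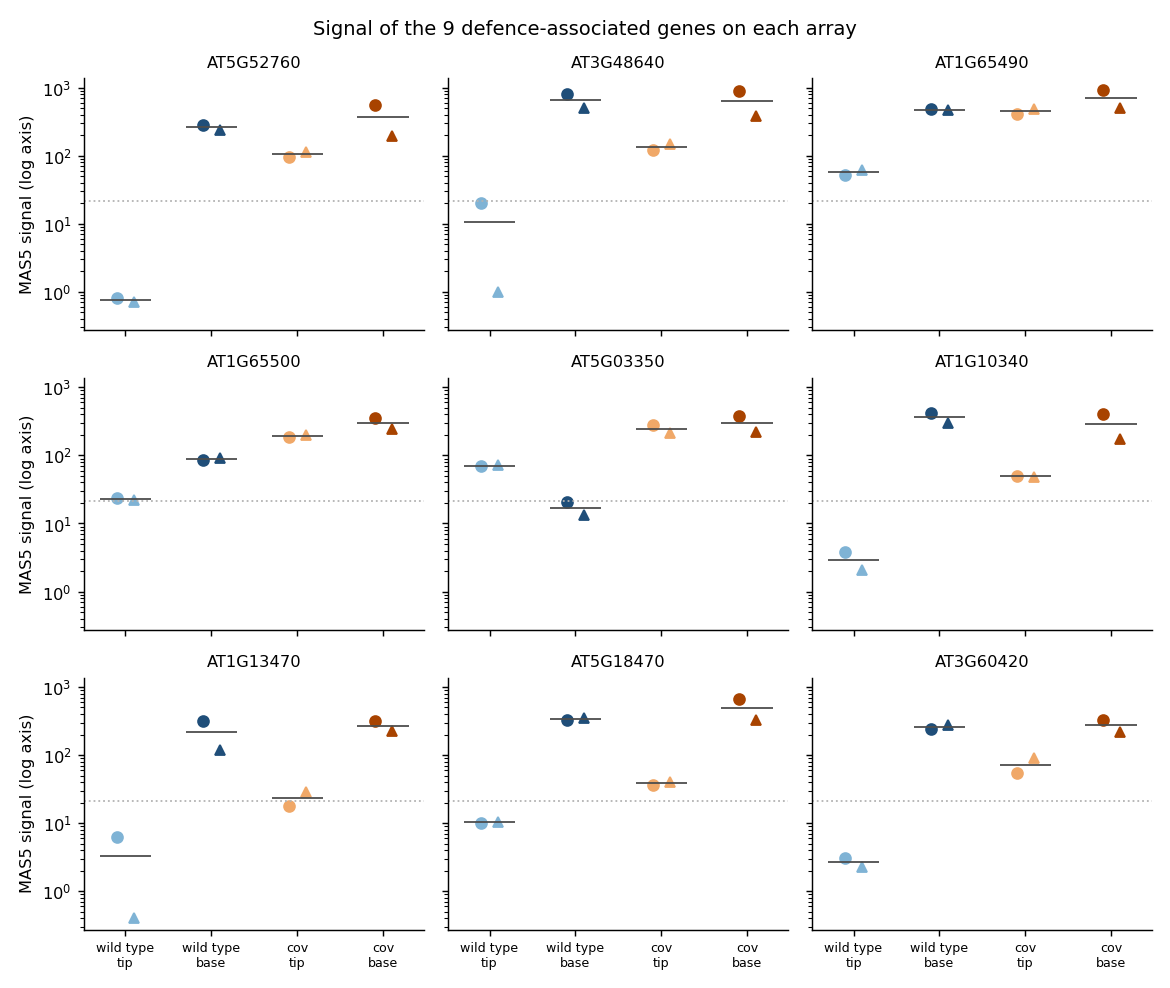
MAS5 signal on a log axis for the 9 genes in the 4 groups, with array 1 as a circle, array 2 as a triangle, the group mean as a line and the limit for dim probe sets (21.4) dotted. The wild type tip is lowest in 8 of the 9 panels, and for AT5G03350 the wild type base is lowest.

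At the stem tip, both cov arrays exceeded both wild type arrays for 9 of 9 genes, where 22.8% of all tested probe sets had that order and 20.1% the opposite one. Because the list was chosen with this and the other contrasts known, such counts of the 9 genes, here and below, say nothing beyond the choice. Differences were computed as log2(signal + 11.85), which draws those of low signals toward 0. On that scale they ran from 1.17 ± 0.26 (standard error, n = 2 arrays per group) for AT5G18470 to 3.21 ± 0.36 for AT5G52760, with a median of 2.50 against 0.01 over all tested probe sets. Between these came AT1G13470 at 1.22 ± 0.38, AT5G03350 at 1.63 ± 0.25 and AT1G10340 at 2.05 ± 0.31. AT3G60420 had 2.50 ± 0.25, AT1G65500 2.57 ± 0.19, AT1G65490 2.75 ± 0.25 and AT3G48640 2.85 ± 0.44. As folds the range was 2.26 to 9.22. Each standard error, here and below, comes from 1 spread pooled over all 4 groups. A gene therefore has the same one in every comparison of 2 groups, and it does not measure the spread at the tip alone. For AT5G52760 the tip arrays were close (0.8 and 0.7, 96 and 113.4), while those of the cov base were far apart (556.5 and 193.4).

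Both wild type tip arrays read below 21.4 for 6 of the 9 genes, so the size of their difference rests on the pseudocount. With 1 sixteenth of the table median in place of 0.25 of it, the tip difference of AT5G52760 was 4.85, and with the table median itself 1.66. For AT1G65490, which was well above the dim limit in all groups, the same settings gave 2.92 and 2.26. The 3 secondary wall genes summed to 224.9 and 228.4 at the cov tip against 170.2 and 189.3 in wild type. None of these 3 genes passed the test at the tip (log2 differences 0.22 for GUT2, 0.28 for IRX15 and 0.36 for IRX15-L, adjusted p = 0.797, 0.743 and 0.515), with 0 of 3 called by limma and 1711 of all probe sets at an unadjusted p under 0.05. The anther markers AT5G07230 and AMS summed to 823.2 and 969.2 at the cov tip and to 829.5 and 1121 at the wild type tip. The part of tissue makeup in the differences of the 9 genes was not tested.

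**Figure D2:**
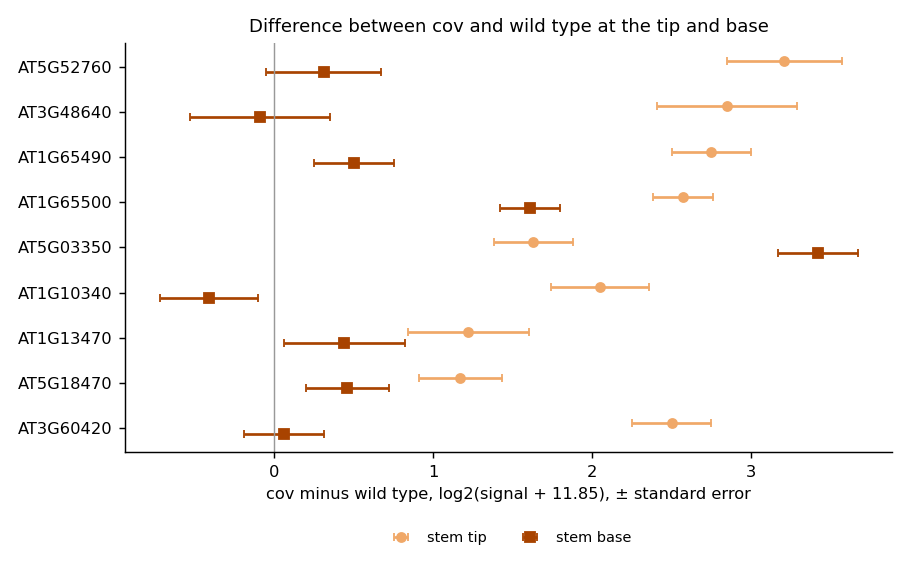
Differences between cov and wild type for each of the 9 genes, as log2(signal + 11.85), at the stem tip (circles) and at the stem base (squares), with bars of 1 standard error. At the tip all 9 points lie between 1.17 and 3.21, and at the base 7 of them lie between -0.41 and 0.50. The bars rest on a spread pooled over all groups.

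At the stem base the genotypes overlapped for 6 of the 9 genes. In the other 3, AT1G65490, AT1G65500 and AT5G03350, both cov arrays were above both wild type arrays, an order found in 25.3% of tested probe sets, with the opposite in 21.1%. AT5G03350 differed by 3.42 ± 0.25 and AT1G65500 by 1.61 ± 0.19. For the other 7 genes the differences were small, from -0.41 ± 0.31 for AT1G10340 to 0.50 ± 0.25 for AT1G65490, and the median of the 9 was 0.44 against 0.02 over all tested probe sets. The mean signals of AT3G48640 (646 against 651) and AT3G60420 (275.6 against 259.6) were almost equal between the genotypes at the base. The cov arrays of AT3G48640 were far apart, though, and without cov base array 1 its difference was -0.69 in place of -0.09. The secondary wall genes were lower at the cov base than at the wild type base, with sums of 1235 and 1759 against 2316 and 2902. IRX15 fell by 1.18 there (adjusted p = 0.00884) and IRX15-L by 0.72 (adjusted p = 0.0391), and GUT2 differed by -0.63 (adjusted p = 0.106). When cov base array 1 was left out the adjusted p was 0.0561 for IRX15 and 0.203 for IRX15-L, and when the first wild type base array was, 0.0885 and 0.218. The part of tissue makeup in the base values of the 9 genes was not tested.

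Along the stem, both base arrays exceeded both tip arrays for 8 of 9 genes in each genotype, with the exception of AT5G03350. In wild type this order was seen in 34.1% of tested probe sets and the opposite in 36.3%. AT5G03350 differed by -1.53 ± 0.25 on the log2 scale between base and tip in wild type, without overlap. In cov 8 genes again had base arrays above tip arrays (34.1% of tested probe sets, with 34.9% the other way). AT1G65490, AT1G65500 and AT5G03350 had the smallest differences between base and tip in cov, 0.58 ± 0.25, 0.57 ± 0.19 and 0.25 ± 0.25.

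The wild type difference of the 8 genes ran from 1.53 ± 0.19 for AT1G65500 to 4.99 ± 0.44 for AT3G48640, and the cov difference of the same genes from 0.57 to 3.26. In each of the 8 the cov value was the smaller. The secondary wall genes had smaller values in cov as well. They were 3.36 in wild type and 2.51 in cov for GUT2, 4.53 and 3.07 for IRX15, and 3.37 and 2.29 for IRX15-L. By limma this difference of gradients passed for IRX15 alone (adjusted p = 0.0364), a call lost in some other settings. The adjusted p was 0.183 for GUT2 and 0.0539 for IRX15-L, and 1.04% of all tested probe sets were called lower. The part of these genes in the gradients of the 9 genes was not tested. AT1G65490 had 2.83 ± 0.25 in wild type beside 0.58 ± 0.25 in cov. AT5G52760 had 4.45 beside 1.56 with a standard error of 0.36 for each, and AT3G60420 had 4.22 beside 1.78 with 0.25 for each. AT5G18470 had 3.97 beside 3.26 with a standard error of 0.26, and AT1G13470 had 3.79 beside 3.01 with 0.38. For genes with a dim wild type tip the size of the wild type gradient rests on the pseudocount. Between the table median and 1 sixteenth of it, the wild type value went from 2.69 to 6.16 for AT5G52760, from 3.01 to 5.95 for AT1G10340 and from 2.27 to 5.14 for AT1G13470. With the table median the genotypes were nearly equal for AT1G13470 (2.27 in wild type, 2.16 in cov) and AT5G18470 (2.73 and 2.60). For AT3G60420 they remained apart (2.61 and 1.43). The cov gradient minus the wild type gradient ran from -2.95 ± 0.62 for AT3G48640 to -0.71 ± 0.37 for AT5G18470 in those 8 and was 1.78 ± 0.35 for AT5G03350. These gradients and the genotype differences above are made from the same 8 arrays and do not support each other.

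**Figure D3:**
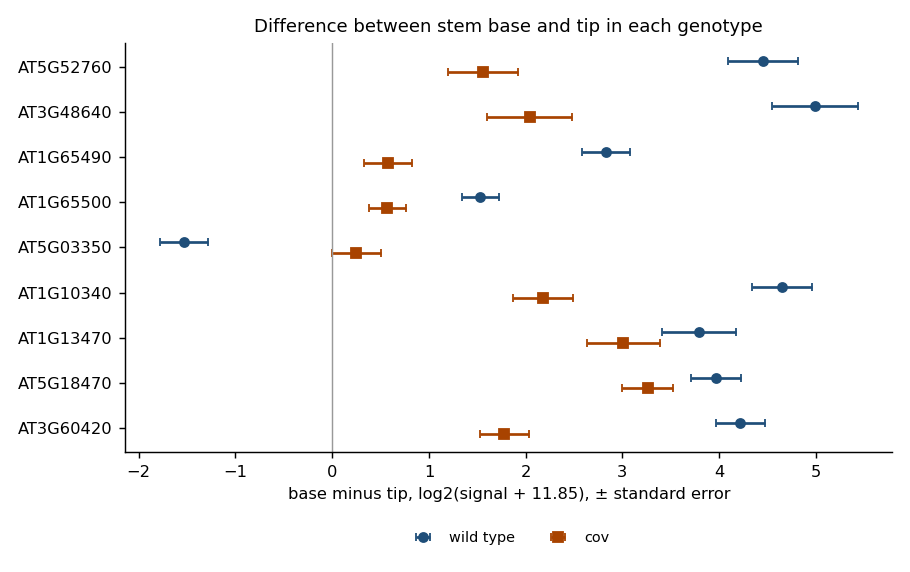
Differences between stem base and stem tip for the 9 genes, as log2(signal + 11.85), in wild type (circles) and in cov (squares), with bars of 1 standard error. The wild type point lies to the right of the cov point in 8 genes, and for AT5G03350 it lies at -1.53. The bars rest on a spread pooled over all groups.

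The replicate arrays of the cov base differed for these genes as a group. Array 1 read higher than array 2 in 9 of 9 genes, and in 49.4% of all tested probe sets. For the 9 genes the difference was 0.46 to 1.47 on the log2 scale, with a median of 0.89. Over all tested probe sets the median difference of these arrays was 0, with a standard deviation of 0.397, and 2.32% of probe sets had a difference of 0.89 or more. In the other groups array 1 was the higher for 6, 6 and 2 of the 9 genes at the wild type tip, wild type base and cov tip, with median differences of 0.05, 0.24 and -0.22. The shares of all tested probe sets with array 1 higher were 46.8%, 44.2% and 51.9% in these groups. Some genes outside the list, picked after their values were seen, showed the split too. WRKY53, a transcription factor gene of the defence response, read 542.5 and 109.7 at the cov base, and AT5G52750, the neighbour of AT5G52760, 539.8 and 204.1. Others did not: the lectin gene EULS3 read 190.4 and 221.1 there, and AT5G55450, the gene most like AT1G65500, 1261.1 and 1375.5. The secondary wall genes ran the other way there, with a sum of 1235 on array 1 and 1759 on array 2, and a part of tissue makeup in the split was not tested.

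Values at the cov base therefore depend on which array is used. Without cov base array 1, the genotype difference at the base of AT5G52760 was -0.42 ± 0.23 in place of 0.31, that of AT1G10340 -0.97 ± 0.25 in place of -0.41 and that of AT1G65490 0.06 ± 0.19 in place of 0.50. AT5G18470 went from 0.46 to -0.02 and AT3G60420 from 0.06 to -0.22. AT5G03350 and AT1G65500 remained at 3.04 ± 0.25 and 1.34 ± 0.20. With 1 array left at the cov base, these standard errors rest on the spread in other groups. They do not measure the spread at the cov base and are no sign of higher precision. The base minus tip difference in cov went from 0.58 to 0.14 for AT1G65490 and from 1.56 to 0.82 for AT5G52760, and for AT5G03350 from 0.25 to -0.12.

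**Figure D4:**
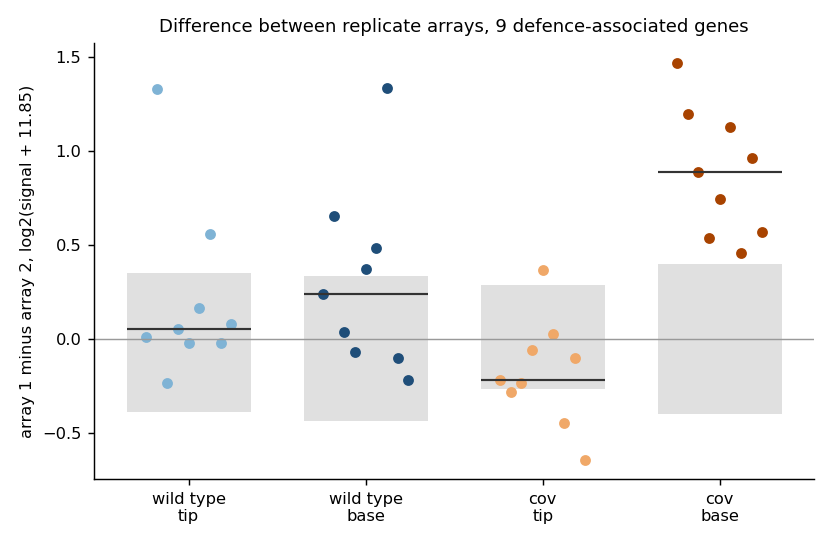
Difference of array 1 from array 2, as log2(signal + 11.85), for the 9 genes (points) in each group, with their median as a line and grey bars for the median ± 1 SD over all 15923 tested probe sets. At the cov base all 9 points lie between 0.46 and 1.47, above the bar.

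The next 2 protein-coding genes on either side of each of the 9 were read as a comparison, since the chosen genes lie on chromosomes 1, 3 and 5 and some have adjacent relatives. Of 32 such neighbours 19 had a probe set of their own and 14 were tested. By limma, at the tip 1 of the 14 was called higher in cov and 0 lower, and at the base 0 in either direction. Over all tested probe sets 1.41% were called higher and 0.408% lower at the tip, and 3.42% and 2.11% at the base (1711 and 3049 had an unadjusted p under 0.05). The 1 was AT5G52750, the gene before AT5G52760. It read 15.6 and 15.5 at the wild type tip, 326.2 and 228.2 at the wild type base, 83.5 and 103.6 at the cov tip, and 539.8 and 204.1 at the cov base. The groups ranked as for AT5G52760, with the same overlap at the base. Its tip difference was 1.94 on the log2 scale (adjusted p = 0.0183), which passed with all arrays but was lost without any 1 of the 4 tip arrays (adjusted p = 0.0834 to 0.155). It was also lost with no filter on dim probe sets (0.0758) and with the table median as pseudocount, where the difference was 1.16 (0.113).

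AT5G52740, 2 genes before AT5G52760, differed by 0.13 at the tip (adjusted p = 0.942). It rose from tip to base in wild type by 1.48 (adjusted p = 0.00201) and in cov by 1.22 (adjusted p = 0.00979), and the adjusted p of the latter was 0.0713 when cov tip array 1 was left out and 0.0836 when cov base array 1 was. On the other side AT5G52780 differed by -0.09 at the tip (adjusted p = 0.936). AT1G65510, which follows AT1G65500, read 7.5 to 43.8 over the 8 arrays and differed by 0.46 at the tip (adjusted p = 0.778). The genes after AT3G60420 were AT3G60440, at 0.40 (adjusted p = 0.613), and AT3G60450, at 0.23 (adjusted p = 0.731). AT5G03345, before AT5G03350, read 227.2 to 284.1 on all arrays, with a tip difference of 0.10 (adjusted p = 0.891).

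Around AT1G10340, the genes AT1G10320, AT1G10350 and GSTU18 (AT1G10360, a glutathione transferase) differed by 0.10, -0.08 and 0.31 at the tip (adjusted p = 0.954, 0.937 and 0.625). GT-1, a transcription factor gene 2 places before AT1G13470, differed by 0.33 at the tip (adjusted p = 0.492) and rose from tip to base in wild type by 1.04 (adjusted p = 0.000295). Around AT5G18470, AT5G18450, AT5G18460 and AT5G18475 differed by -0.16, -0.17 and 0.10 at the tip (adjusted p = 0.911, 0.951 and 0.954). AT5G18460 fell by 1.79 from tip to base in wild type (adjusted p = 0.00507), opposite to its neighbour AT5G18470, and without wild type base array 2 its adjusted p was 0.0513.

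**Figure D5:**
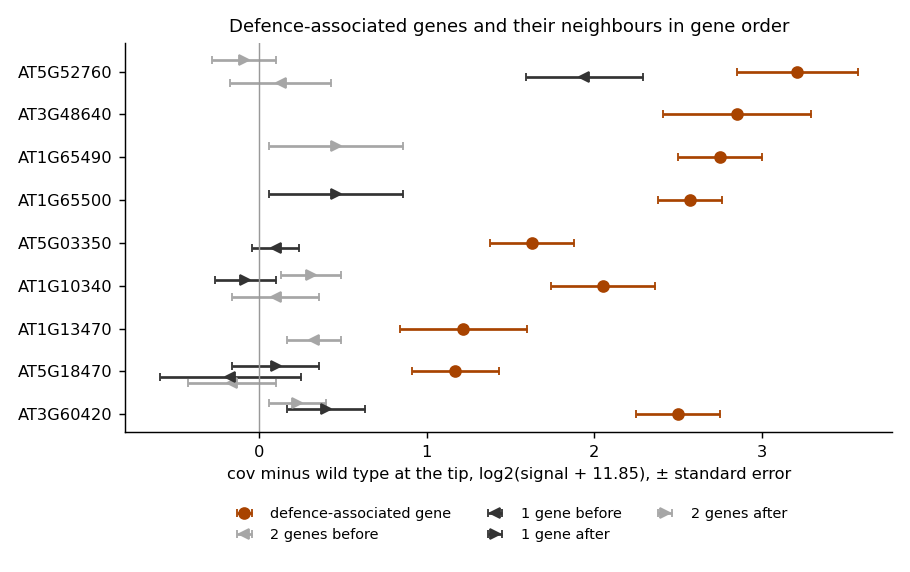
Differences between cov and wild type at the stem tip, as log2(signal + 11.85) with bars of 1 standard error, for the 9 genes (circles) and for tested neighbours up to 2 genes before or after each in gene order (triangles). Apart from AT5G52750 at 1.94, the neighbours lie between -0.17 and 0.46. The bars rest on a spread pooled over all groups.

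For each of the 9 genes, the 3 genes outside the list with the highest Pearson correlation over the 8 arrays were identified. Their correlations lay between 0.950 and 0.996. Differences among the 4 groups and between replicate arrays both enter them and were not separated, so they describe likeness of profile alone. AT5G19240 was closest to both AT5G52760 (0.994) and AT1G65490 (0.986). It read 69.8 and 71.7 at the wild type tip, 669.8 and 602.8 at the wild type base, 389 and 455.1 at the cov tip, and 1204.6 and 728.4 at the cov base. Next to AT5G52760 came its neighbour AT5G52750 (0.987) and LPR2 (0.980). AT1G65490 was also close to AT4G17070 (0.982) and AT1G13750 (0.979).

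AT1G52200 was nearest to both AT3G48640 (0.989) and AT1G10340 (0.994), with 12 and 9.6 at the wild type tip, 82.3 and 65.4 at the wild type base, 29 and 34.8 at the cov tip and 75.6 and 59.1 at the cov base. AT1G65500 was most like AT5G55450 (0.983), which read 162.3 and 123.4, then 536.9 and 492.5, then 875.6 and 980.4, then 1261.1 and 1375.5 in the same order of groups, so that here too both cov parts exceeded both wild type parts. The nearest to AT5G03350 was AT5G61520 (0.978), which was 54.7 and 58.8 at the wild type tip, 43.8 and 46.6 at the wild type base, 90.2 and 80.6 at the cov tip and 93.4 and 75.6 at the cov base. AT3G60420 was most like AT5G42050 (0.994), AT1G13470 like AT5G37070 (0.996) and AT5G18470 like AT3G55960 (0.994).

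The remaining nearest genes were AT1G03210 (0.989) and AT3G46110 (0.988) for AT3G48640, AT5G52810 (0.964) and AT3G02880 (0.963) for AT1G65500, and AT5G58150 (0.951) and AT5G06110 (0.950) for AT5G03350. For AT1G10340 they were AT5G46780 (0.993) and AT3G13950 (0.991), for AT1G13470 AT5G63710 (0.993) and AT3G19010 (0.990), for AT5G18470 AT5G67340 and AT4G22980 (0.993 each), and for AT3G60420 AT1G03400 (0.993) and AT3G56410 (0.988).

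Other genes of the salicylic acid pathway were read from a list of 43, of which 6 had a probe set of their own in the annotation used here and 4 were tested. At the tip 1 of the 4 rose in cov, 0 fell and 3 were not called, against 1.41% and 0.408% of all tested probe sets called higher and lower. The median log2 difference was 0.56 against 0.01 over all tested probe sets. The 1 was AT5G52810 (entered as SARD4), at 58.5 and 63 in wild type and 119.9 and 110.8 in cov, a difference of 0.81 (adjusted p = 0.0321). That call was lost without any 1 of the 4 tip arrays (0.0829 to 0.274), with no filter (0.0548) and without trend (0.0516). GRX480, a glutaredoxin gene induced by salicylic acid, read 16.2 and 22.8 in wild type and 35.6 and 43.5 in cov, a difference of 0.72 (adjusted p = 0.347). The tip differences were 0.12 for SAG101, a partner of the defence regulator EDS1 (adjusted p = 0.935), and 0.41 for BSMT1, which methylates salicylic acid (adjusted p = 0.564).

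At the base 0 of the 4 salicylic acid genes passed by limma, against 3.42% of all tested probe sets called higher and 2.11% lower (3049 at an unadjusted p under 0.05). GRX480 had the lowest adjusted p there, at 225.6 and 119.4 in wild type and 380.8 and 274.6 in cov (log2 difference 0.93, adjusted p = 0.0823). When wild type base array 1 was left out, 1 of the 4 was called. Along the stem in wild type, 2 of the 4 rose toward the base and 1 fell, where 22% of all tested probe sets were called higher at the base and 24.4% lower. GRX480 rose by 2.50 (adjusted p = 2.94e-05) and AT5G52810 by 0.72 (adjusted p = 0.00399), while BSMT1 fell by 3.04 (adjusted p = 1.46e-06), from 119.4 and 134.4 at the tip to 3.8 and 6.4 at the base. In cov, where 15.4% of all tested probe sets were called higher and 15.8% lower, 1 rose and 1 fell, namely GRX480 by 2.71 (adjusted p = 4.12e-05) and BSMT1 by 3.32 (adjusted p = 2.16e-06).

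Of 23 genes listed for pattern-triggered immunity, 4 had a probe set of their own and 3 were tested. None of the 3 was called by limma between the genotypes at the tip or at the base (0 of 3 in each), where 1.41% and 3.42% of all tested probe sets were called higher and 0.408% and 2.11% lower (1711 and 3049 at an unadjusted p under 0.05). Leaving out either cov base array gave 1 call at the tip, and leaving out cov base array 1 gave 1 at the base. Toward the base 2 of 3 rose in wild type and 2 in cov, against 22% and 15.4% of all tested probe sets called higher. WRKY53 read 16.5 and 22.5 at the wild type tip, 267.9 and 274.4 at the wild type base and 42 and 59.3 at the cov tip. The genotypes did not overlap at the tip, with a difference of 0.99 ± 0.51 (adjusted p = 0.552). That standard error pools all groups, among them the cov base arrays at 542.5 and 109.7. At the base the difference was -0.12 (adjusted p = 0.937). WRKY53 rose toward the base by 3.18 in wild type (adjusted p = 0.000437) and by 2.07 in cov (adjusted p = 0.0103). BIK1, a receptor-associated kinase, rose by 1.46 (adjusted p = 0.000183) and 0.88 (adjusted p = 0.00813). Between the genotypes BIK1 differed by 0.34 at the tip (adjusted p = 0.632) and by -0.24 at the base (adjusted p = 0.601). When cov tip array 1 was omitted, WRKY53 and BIK1 no longer passed in cov (0.0708 and 0.0896), nor did BIK1 when cov base array 1 was omitted (0.0742). WRKY22 differed by -0.08 at the tip (adjusted p = 0.954) and by 0.42 at the base (adjusted p = 0.283).

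Of 22 jasmonate and ethylene genes 2 had a probe set of their own and 1 was tested, THI2.1, a thionin gene. At the tip it differed by -0.26 (adjusted p = 0.903), at 251.5 and 510.6 in wild type and 230 and 382.2 in cov. At the base it read 15.1 and 42 in wild type and 284.2 and 168.2 in cov, and rose by 2.60 (adjusted p = 0.00409). It fell from tip to base by 3.28 in wild type (adjusted p = 6.42e-05) and differed by -0.42 in cov (adjusted p = 0.478). Its cov gradient exceeded the wild type one by 2.86 (adjusted p = 0.0305), where 1.11% of all tested probe sets were called higher and 1.04% lower.

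Genes sharing a family word with the 9 in their annotation were also read, and lectins alone had at least 3 tested, with 4 of 54. The word joins lectins of different types, so these 4 need not be relatives of AT5G03350 or AT5G18470. At the tip 0 of 4 were called by limma, against 1.41% of all tested probe sets called higher and 0.408% lower (1711 at an unadjusted p under 0.05). At the base 1 of 4 rose in cov, against 3.42% of all tested probe sets. It was the jacalin-related lectin gene JAL23, from 100.4 and 221.8 in wild type to 677.8 and 405.2 in cov (log2 difference 1.73, adjusted p = 0.0101). Its adjusted p was 0.0601 when cov base array 1 was omitted and 0.0719 when the first wild type base array was. JAL23 rose from tip to base in cov by 1.07 (adjusted p = 0.0257), a call lost with no filter on dim probe sets (0.0618). The call was also lost without cov tip array 1 (difference 1.23), cov tip array 2 (0.92) or cov base array 1 (0.71). In wild type JAL23 differed by 0.05 (adjusted p = 0.918). EULS3, a lectin of another type than JAL23, rose toward the base by 1.28 in wild type (adjusted p = 0.000187) and by 0.83 in cov (adjusted p = 0.00525). JAL33 and JAL34 were not called in any of these contrasts.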

How the data were processed

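The deposited values are linear MAS5 signal intensity (MAS5 per the submitters' processing notes, with its version and scaling target not stated in the labels). Trimmed means (2% off each end) were 100 on all arrays, and no normalization was added. Of 22810 probe sets, 64 controls were left out, and 13513 had exactly 1 gene. Names and gene order came from RefSeq's TAIR10.1 gene table. Before log2, 11.85 was added as a pseudocount, which is 0.25 of the median signal, 47.4. Probe sets with a mean signal under 21.36 (the 30th percentile) were dropped, which left 15923. The 4 group means were fitted with limma 3.58.1 in R 4.3.3 (lmFit, eBayes with trend, 4 residual degrees of freedom). P-values are two-sided and Benjamini-Hochberg adjusted over all tested probe sets within a contrast, and the procedure was tested on simulated data. The 9 genes, the lists and the rule for named genes were chosen with earlier results of these data known. Named genes were the 9, their tested neighbours, their 3 best correlated genes, list genes called in a contrast (up to 4 a direction), and up to 3 markers a list; list genes not called and genes shown for the replicate split were named after their values were seen. Of a gene's probe sets the brightest was used. A comparison by protein similarity was not run, since no protein sequences were used here. The columns of no sample numbered 0. Alternatives are given in the closing section.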

Additional observations from a re-analysis of the deposited data

Results flagged for a closer look

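For IRX15 and THI2.1 the genotype difference at the base was not the same as that at the tip by limma's test of the difference itself. For THI2.1 the base difference minus the tip difference was 2.86 on the log2 scale (adjusted p = 0.0305), from -0.26 at the tip and 2.60 at the base. Its adjusted p was 0.0505 to 0.12 when either cov tip array, cov base array 1 or, in wild type, tip array 2 or base array 1 was left out, and 0.0971 with no filter and 0.066 without trend. For IRX15 it was -1.46 (adjusted p = 0.0364), from 0.28 at the tip and -1.18 at the base, and its adjusted p was above 0.05 in 7 of the 8 omissions of an array (0.0574 to 0.138), all but that of cov base array 2. It was 0.0865 with no filter, 0.0504 with quantile normalization and 0.0686 without trend.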

How the results depend on the processing

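Of 15 other settings, those with no filter, without trend, with the replicate block or without a base array leave the tip differences unchanged by construction. In the rest the tip difference was at least 1 on the log2 scale for 9 of 9 genes, except 6 with the table median as pseudocount and 8 without wild type tip array 2. No tip difference and no wild type base minus tip difference of the 9 genes changed sign. The genes were chosen with these contrasts known, so this says nothing beyond the choice. Of the recomputed differences of the 9 genes, 498 moved by less than the replicate spread and 42 by more, mostly with another pseudocount. Most of the 498 could not have moved by more. Omitting 1 of 2 arrays shifts a difference by less than that spread, and no filter, no trend and the replicate block do not shift it. Centring arrays on their median moved the median of all tested probe sets in the wild type base minus tip contrast by over 0.1, from -0.014 to 0.107. It also moved the higher share of calls at the base from 61.9% to 50.5%.

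Omitting arrays left 116 to 350 probe sets called at the tip (290 with all), 440 to 873 at the base (881), 2870 to 5062 for base minus tip in cov (4978) and 111 to 465 for the difference of the genotype differences (342). That last count was 139 with no filter and 227 without trend. The salicylic acid genes called at the tip were 0 with no filter and 0 without trend, and 0 to 1 over omissions, as at the base. The pattern-triggered immunity genes numbered 0 to 1 at the tip and base and 0 to 2 for base minus tip in cov, and lectin calls 2 to 4. The lectin calls are a sum over the tip, the base and base minus tip in each genotype, and numbered 4 with all arrays. The replicate numbers are shared by groups, and deviations of same-numbered arrays correlated at -0.0432 to 0.162, so they were not taken as pairs. With the replicate block 299 probe sets were called at the tip and 890 at the base, and the call of IRX15-L at the base was lost (adjusted p = 0.0512). That call was also lost with no filter (0.0626), without trend (0.0785) and in 6 omissions of an array (0.0511 to 0.218).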
